A study of Mus musculus with 16 samples.

Results

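Toll-like receptors are innate immune sensors of microbial molecules, and the 10 genes described here are 9 of these receptors (Tlr1 to Tlr9) and Myd88, the adaptor protein through which most of them signal. The genes were listed by name, with earlier results of these data known, and make up 10 of the 21887 protein-coding genes examined. Binding at them was read from CUT&Tag, in which a transposase held by an antibody cuts the DNA around the factor and adds sequencing adapters. The cells were MPP3, myeloid-biased multipotent progenitors of the bone marrow of mice, and the factors were Bcl11a, a zinc finger repressor, and Spi1 (PU.1), an ETS factor needed for myeloid cells. Of the 16 libraries, 6 profiled Bcl11a in WT-iMOS mice (3 T2 and 3 T1), 4 profiled Spi1 in KO-iMOS mice (2 T2 and 2 T1) and 6 profiled Spi1 in WT-iMOS mice (3 T2 and 3 T1). All groups carry iMOS in their name and 3m in their title. The study's design text names Bcl11a function in MPP3 as its subject. The labels do not explain iMOS, 3m, T1 or T2, and the gene behind KO, the strain, a Cre driver and whether replicates came from separate animals are not given in the sources used here. The p-values therefore measure only the spread between these libraries.

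The receptors divide by where they act. Tlr1, Tlr2, Tlr4, Tlr5 and Tlr6 sit on the cell surface and sense components of microbial walls and flagella, whereas Tlr3, Tlr7, Tlr8 and Tlr9 sense nucleic acids inside endosomes. All but Tlr3 can signal through Myd88 towards NF-kappaB, and in mouse progenitors such signals are known to favour myeloid output.

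Each library was given as the authors' list of peaks on the mm10 genome, with 2719 to 20241 peaks per list. A locus was taken as the gene plus 10 kb before and after it. Read counts were not used here and depth is unknown, so a missing peak is a peak not called, not an absence of the factor. In sorted cells in bulk, fewer bound cells and weaker binding per cell cannot be told apart. For Spi1 there were 13637 ± 5724 peaks per list in KO-iMOS (mean ± SD, n = 4) and 8159 ± 2763 in WT-iMOS (n = 6), with overlap. The Bcl11a lists held 4740 ± 1725 (n = 6), of which T1 replicates 2 and 3 were the longest (5964 and 7382). The KO-iMOS T2 lists name their peaks PKO and the KO-iMOS T1 lists name theirs PWT. In WT-iMOS the names also differ by T, with PMG in T2 and PWG in T1 for Spi1, and BMG and BWG for Bcl11a. The labels do not explain these names, so counts are given by T as well. No library used here profiled Bcl11a in KO-iMOS, and the gene behind KO is not given, so a deletion could not be checked. Peak lists hold no RNA level, so the cell type could be checked only by loci. Of 8 progenitor loci, 7 had a Spi1 peak in at least 2 libraries of KO-iMOS (49.8% of all genes) and 7 in at least 2 of WT-iMOS (33.5%). They were Flt3, Cd48, Ptprc, Csf1r, Spi1 and Mpo in both, with Cd34 in KO-iMOS and Kit in WT-iMOS. Of 6 loci of other tissues 0 did so in either genotype, and 2, Alb and Krt5, had Spi1 in 1 KO-iMOS library.

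In at least 1 library, Bcl11a was called at 4 of the 10 loci in WT-iMOS (39.5% of all genes), and Spi1 at 7 in KO-iMOS (60.2%) and at 7 in WT-iMOS (44.9%). The peaks merged into 13 regions, built from 70 Spi1 peaks and 8 Bcl11a peaks, when peaks sharing at least 1 bp were joined. Of these regions 5 lay inside the member gene, 2 over one of its boundaries and 6 outside it, and 11 were called in at least 2 of the 16 libraries. All 5 regions with a Bcl11a peak also had Spi1 in WT-iMOS. Spi1 was called in both genotypes at 10 regions and in KO-iMOS alone at 3. The reference table gives gene boundaries and start sites but no exons, so a region inside a gene is not placed in an exon, intron or UTR.

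In at least 2 libraries of a group, Bcl11a was called at 2 of 10 members in WT-iMOS (25.3% of all genes), and Spi1 at 6 of 10 in KO-iMOS (49.8% of all genes) and at 6 of 10 in WT-iMOS (33.5% of all genes). Both factors were called in at least 2 WT-iMOS libraries at 2 of 10 members, Tlr6 and Tlr9 (19.5% of all genes). With 10 genes, these counts stand close to the background for Bcl11a and for Spi1 in KO-iMOS. Their order against it also changed with the cutoff. In at least 1 library, Bcl11a was at 4 of 10 members (39.5% of all genes). With a -log10 q above 5, Spi1 was in at least 2 libraries at 4 of 10 in KO-iMOS (42.7%) and 6 of 10 in WT-iMOS (27.8%). No test was made of the members against all genes. When every list was shortened to at most 2719 peaks, those with the highest -log10 p, Bcl11a was at 1 of 10 members (14.9% of all genes), and Spi1 at 4 in KO-iMOS (12.7%) and at 3 in WT-iMOS (13.4%). The median locus length was 36.6 kb for the members and 37.2 kb for all genes. Of the 5 cell surface receptors 4 carried Spi1 in at least 2 KO-iMOS and in at least 2 WT-iMOS libraries. Of the 4 endosomal receptors 1 did so in each genotype, against 49.8% and 33.5% of all genes. The contrast narrowed with wider loci. When flanks were widened to 50 kb, Spi1 reached Tlr8 (KO-iMOS 4 libraries, WT-iMOS 6), Tlr3 (3 and 2) and the cell surface receptor Tlr1 (4 and 6). At that width the Tlr1 locus takes in the regions of its neighbour Tlr6, which by themselves give these Tlr1 counts. Among the endosomal receptors only Tlr7 then lacked Spi1. A difference between the receptor classes was not tested.

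**Figure D1:**
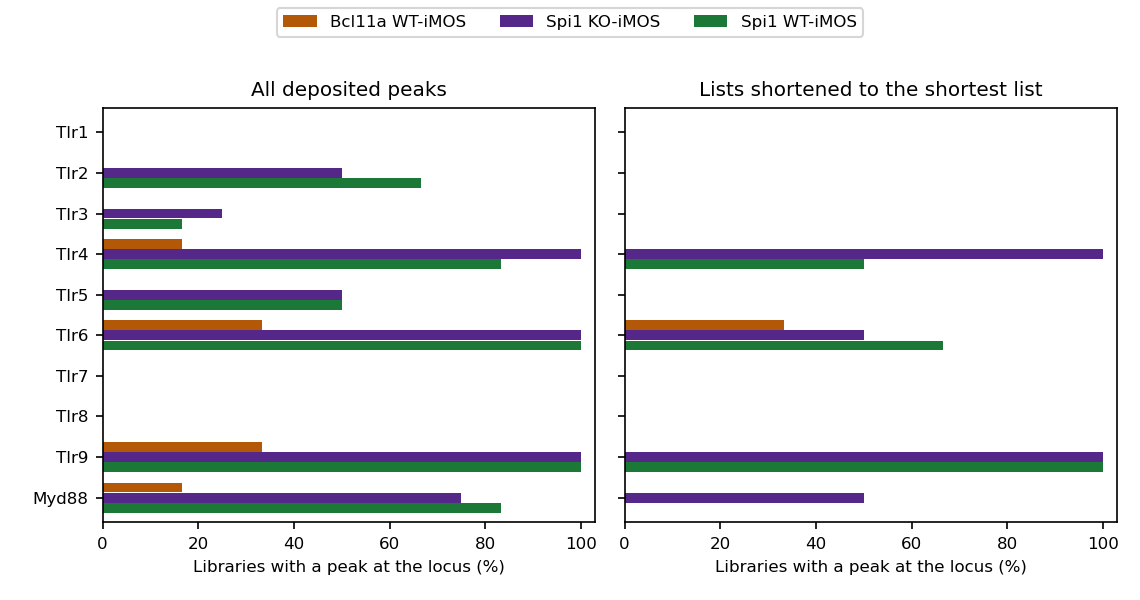
Bars give the percent of libraries of each group (x axis) with a peak at the locus of each gene (y axis), for Bcl11a in WT-iMOS (6 libraries), Spi1 in KO-iMOS (4) and Spi1 in WT-iMOS (6). The left panel uses all deposited peaks and the right panel at most 2719 peaks of each list, those with the highest -log10 p (2605 in Bcl11a WT-iMOS T2 replicate 2); Tlr9 keeps Spi1 in 4 of the 4 KO-iMOS libraries and 6 of the 6 from WT-iMOS in both, and Tlr1, Tlr7 and Tlr8 have no bar.

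Tlr9, the receptor for unmethylated CpG DNA, had a Spi1 peak in all 10 Spi1 libraries. Of the 8 members with a listed start site, it was the only one whose promoter window (250 bases before to 50 after a start site) carried Spi1 in 2 or more libraries. Such a window had Spi1 in at least 2 libraries at 24.4% of all windows in KO-iMOS and at 10.4% in WT-iMOS, and Bcl11a at 9.30% in WT-iMOS. Tlr1, which pairs with Tlr2 to sense triacylated lipopeptides, had no peak at its locus. Both start sites are near a GAGGAAGT, a sequence that Spi1 is known to bind, and are shown for that reason. The letters are those of RefSeq for GRCm38.p6 (mm10), from 250 bases before the start site to 30 bases from it onwards, with GAGGAAGT or its reverse complement in capitals. The Tlr9 window is chr9:106222348-106222627 on the plus strand and the Tlr1 window chr5:64933529-64933808 on the minus strand.
Tlr9: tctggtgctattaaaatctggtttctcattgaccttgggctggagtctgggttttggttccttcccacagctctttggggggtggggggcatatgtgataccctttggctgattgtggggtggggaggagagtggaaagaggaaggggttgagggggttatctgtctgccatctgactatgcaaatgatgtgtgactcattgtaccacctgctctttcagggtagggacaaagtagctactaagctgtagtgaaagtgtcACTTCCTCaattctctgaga
Tlr1: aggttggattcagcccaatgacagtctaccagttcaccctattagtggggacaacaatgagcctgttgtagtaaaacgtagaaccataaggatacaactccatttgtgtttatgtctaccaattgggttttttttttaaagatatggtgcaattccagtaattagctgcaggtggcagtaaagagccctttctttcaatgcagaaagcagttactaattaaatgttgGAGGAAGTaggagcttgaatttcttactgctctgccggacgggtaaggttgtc

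In Tlr9 the match begins 10 bases after the start site, on the strand opposite to the gene, and in Tlr1 it begins at -23 from one of its start sites, on the strand of the gene. Windows were found for 8 members, 10 windows in all, and not for Tlr4 and Tlr7. GAGGAAGT, searched on both strands, was in 2 of these 10 windows and in 3.13% of 21263 windows of all genes. The shorter ETS core GGAA, which GAGGAAGT contains, was in 10 of 10 and in 95.7% of all windows. TGACCA, a sequence bound by Bcl11a, was in 1 of 10, the Tlr6 window nearer to its region 1, and in 12.5% of all windows. Over all genes, Spi1 was called in at least 2 libraries at 38.3% of the windows with GAGGAAGT and 23.9% of those without in KO-iMOS, and at 27.8% and 9.87% in WT-iMOS. For Bcl11a in WT-iMOS these shares were 9.76% and 9.28%. Of the 10 member windows, only that of Tlr9, which holds the match, had Spi1 in at least 2 libraries. The Tlr1 window with the match had no Spi1 peak. With 2 matches among 10 windows, it cannot be said whether the letters go with a peak at the members.

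Tlr9 itself spans chromosome 9, 106222598 to 106226876, and had a region over its start site, which covers the letters shown above, and a second one beyond its other end. The first, chromosome 9, 106222245 to 106223240, had its median summit at -6 bp from the start site. Bcl11a was called there in 0 of 3 T2 and 2 of 3 T1 libraries. Spi1 was called in 2 of 2 T2 and 2 of 2 T1 libraries of KO-iMOS, and in 2 of 3 T2 and 3 of 3 T1 libraries of WT-iMOS. Spi1 summits spread over 63 bp in KO-iMOS and 57 bp in WT-iMOS, so that the 9 Spi1 libraries with a peak placed it within a short stretch. The Bcl11a summits lay at -143 and 121 bp from the median Spi1 summit of WT-iMOS, one on each side. The second region, chromosome 9, 106229854 to 106230872, lay 2978 bp from Tlr9 and 2583 bp from the neighbouring gene Alas1, which encodes the first enzyme of haem synthesis. It was called for Bcl11a in 0 of 3 T2 and 2 of 3 T1 libraries, and for Spi1 in 4 of the 4 KO-iMOS libraries and 6 of the 6 from WT-iMOS. The lists do not tell which of the neighbours the region serves.

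The strength of a peak is given as the percentile of the authors' -log10 p within its own list. At the second Tlr9 region the Spi1 peaks ranked at 84.4 and 73.4 in KO-iMOS T2, 94.5 and 90.5 in KO-iMOS T1, 96.8, 87.7 and 83.0 in WT-iMOS T2 and 95.1, 91.0 and 82.9 in WT-iMOS T1. All 10 Spi1 libraries thus held it in the upper part of their list, and the genotypes overlapped. The Bcl11a peaks there ranked lower, at 20.6 and 38.3 in T1 replicates 2 and 3. Over the start site the Spi1 percentiles ran between 56.2 and 89.2 in KO-iMOS and between 32.4 and 88.0 in WT-iMOS, and the Bcl11a peaks ranked at 7.45 and 25.2.

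Tlr6, which pairs with Tlr2 to sense diacylated lipopeptides, carried Spi1 in 4 of the 4 KO-iMOS libraries and 6 of the 6 from WT-iMOS, through 1 region called in both genotypes and 1 called in KO-iMOS. Its region 1, chromosome 5, 64960714 to 64961738, lay inside the annotated gene with the median summit at -989 bp from the nearest listed start site. Bcl11a was called there in 0 of 3 T2 and 2 of 3 T1 libraries. Spi1 was called in 1 of 2 T2 and 2 of 2 T1 libraries of KO-iMOS and in 3 of 3 T2 and 3 of 3 T1 libraries of WT-iMOS. This was the strongest Bcl11a peak of the members, at percentiles 66.8 and 86.0, with summits 14.5 and 42.5 bp from the median Spi1 summit of WT-iMOS. The Spi1 percentiles were 28.3 in the KO-iMOS T2 library and 89.0 and 87.6 in T1, and in WT-iMOS 78.3, 54.8 and 2.35 in T2 and 94.1, 92.2 and 92.7 in T1. The T2 percentiles lay below the T1 percentiles in each genotype.

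Region 2 of Tlr6, chromosome 5, 64969161 to 64970381, was called for Spi1 in 3 of 4 KO-iMOS libraries (1 of 2 T2 and 2 of 2 T1) and in 0 of 6 WT-iMOS libraries. The merged region spans the boundary of the neighbouring gene Fam114a1 at position 64970075, but only the peak of KO-iMOS T1 replicate 1 crosses it. The 3 peaks had modest percentiles of 45.6, 22.8 and 18.3, and their summits spread over 323 bp. Fisher's exact test gave an unadjusted p of 0.0333 and a Benjamini-Hochberg adjusted p of 0.231 over 19529 merged Spi1 regions. At that unadjusted threshold 15.4% of all Spi1 regions were higher and 3.90% lower in KO-iMOS, so such a count is not rare in these lists. These shares stand for 3004 regions higher and 762 lower. With the shortened lists there were 411 and 360, and without KO-iMOS T1 replicate 1 there were 1231 and 695. Of the 11 member regions tested, 0 passed the adjustment.

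**Figure D2:**
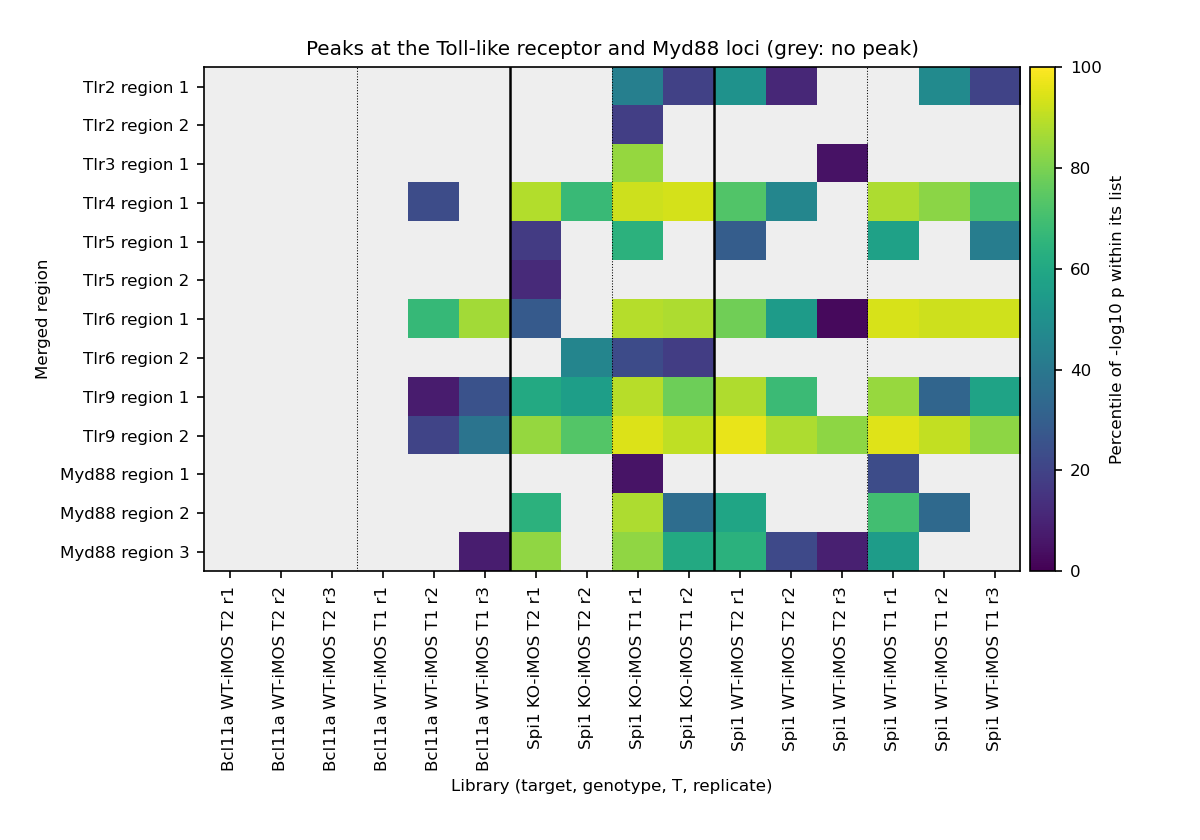
Each cell gives the percentile of the peak's -log10 p within its own list (colour, 0 to 100) for 1 merged region (rows) in 1 library (columns, r for replicate), with grey where no peak was called; solid lines part the target and genotype groups and dotted lines T2 from T1. Tlr9 region 2 is filled in all 10 Spi1 libraries, Tlr6 region 2 in 3 KO-iMOS libraries, and Bcl11a in T1 replicates 2 and 3.

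Tlr4, the lipopolysaccharide receptor on chromosome 4 from 66827551 to 66846581, carried 1 region over the gene boundary with the lower coordinate, chromosome 4, 66827278 to 66828216, with its median summit 111 bp inside the gene. Bcl11a was called in 0 of 3 T2 and 1 of 3 T1 libraries. Spi1 was called in 4 of 4 KO-iMOS libraries and in 2 of 3 T2 and 3 of 3 T1 libraries of WT-iMOS. The percentiles were 88.4, 67.9, 92.2 and 93.4 in KO-iMOS and between 45.9 and 87.6 in WT-iMOS, with overlap, and the Bcl11a peak ranked at 23.3. Summits were less fixed than at Tlr9, with a spread of 325 bp in KO-iMOS and 167 bp in WT-iMOS.

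**Figure D3:**
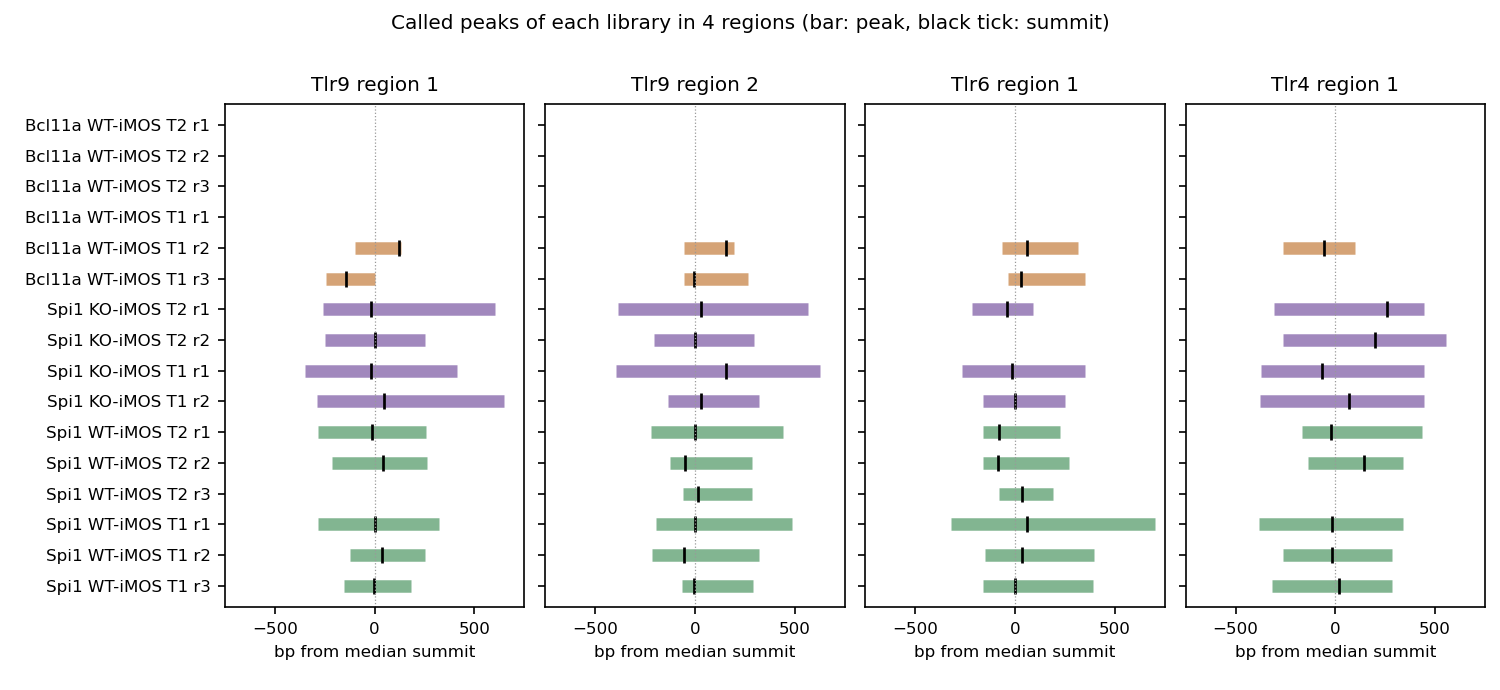
Bars show each library's called peak and black ticks its summit, in bp from the median summit of the region (x axis), for Tlr9 regions 1 and 2, Tlr6 region 1 and Tlr4 region 1; rows are libraries, r stands for replicate, and colours mark Bcl11a WT-iMOS, Spi1 KO-iMOS and Spi1 WT-iMOS. The 9 Spi1 summits of Tlr9 region 1 lie closer together than those of Tlr4 region 1, which spread over 325 bp in KO-iMOS and 167 bp in WT-iMOS.

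Tlr2, the shared partner of Tlr1 and Tlr6, and Tlr5, the flagellin receptor, carried Spi1 in some libraries of each genotype and Bcl11a in 0 of 6. Tlr2 had Spi1 in 2 of the 4 KO-iMOS libraries and 4 of the 6 from WT-iMOS, and Tlr5 in 2 of the 4 and 3 of the 6. The Tlr2 region at chromosome 3, 83839491 to 83839978, lay inside the gene with its median summit 1923 bp past the start site. It was called in 0 of 2 T2 and 2 of 2 T1 libraries of KO-iMOS, and in 2 of 3 T2 and 2 of 3 T1 libraries of WT-iMOS. The summits spread over 5 bp in KO-iMOS and 7 bp in WT-iMOS, and the medians of these groups stood 56.5 bp apart, so here the summits of the genotypes did not overlap. That offset was noticed after the values were seen and was not tested. The peaks were of low to middle rank, at 43.4 and 19.3 in KO-iMOS and between 11.1 and 51.1 in WT-iMOS. A second Tlr2 region, 121 bp past the start site, was called in 1 KO-iMOS library, T1 replicate 1, which has the longest list. The main Tlr5 region, chromosome 1, 182953602 to 182954103, had its median summit at -968 bp from the start site and was called in 1 of 2 T2 and 1 of 2 T1 libraries of KO-iMOS and in 1 of 3 T2 and 2 of 3 T1 libraries of WT-iMOS. A further Tlr5 region, 500 bp past the start site, was called in 1 KO-iMOS library, T2 replicate 1.

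Myd88, on chromosome 9 from 119335934 to 119340018, had 3 regions, all outside the gene. The one before its start, chromosome 9, 119340971 to 119341654, had its median summit at -1138 bp from the start site and crosses into the neighbouring gene Acaa1a, whose boundary is at 119341028. Bcl11a was called there in 0 of 3 T2 and 1 of 3 T1 libraries, at percentile 8.11. Spi1 was called in 1 of 2 T2 and 2 of 2 T1 libraries of KO-iMOS, and in 3 of 3 T2 and 1 of 3 T1 libraries of WT-iMOS. Its percentiles were 83.5, 83.5 and 60.7 in KO-iMOS and 63.9, 22.1, 8.85 and 55.1 in WT-iMOS, so that all 3 KO-iMOS peaks ranked above 3 of the 4 WT-iMOS peaks, within lists of unequal length. The region past the other end, chromosome 9, 119334338 to 119334815, lay 1119 bp from the gene and was called for Spi1 in 3 of the 4 KO-iMOS libraries and 3 of the 6 from WT-iMOS and for Bcl11a in 0 of 6. The third region lay 6851 bp from the gene and nearer, at 5834 bp, to the neighbouring gene Oxsr1. Spi1 was called there in 1 KO-iMOS T1 and 1 WT-iMOS T1 library, whose summits were 1 bp apart. Together the 3 regions gave Myd88 Spi1 in 3 of the 4 KO-iMOS libraries and 5 of the 6 from WT-iMOS.

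The other endosomal receptors were sparsely called or not called at all. Tlr3, a sensor of viral RNA, had 1 region, 3891 bp from the gene. It was called for Spi1 in 1 of 4 KO-iMOS libraries, from T1 and at percentile 84.1, and in 1 of 6 WT-iMOS libraries, from T2 and at 4.78. Tlr1, Tlr7 and Tlr8 had no peak in any of the 16 libraries, as did 33.4% of all genes. The nearest Spi1 peak to Tlr8 lay just outside the 10 kb limit, at 11520 bp in KO-iMOS and 11427 bp in WT-iMOS. The nearest Bcl11a peak to Tlr8 was 21316 bp away. For Tlr1, 19492 bp from Tlr6 on chromosome 5, the nearest peak was 27170 bp away for Spi1 in KO-iMOS, 14034 bp for Spi1 in WT-iMOS and 14053 bp for Bcl11a. Tlr7 and Tlr8, sensors of RNA, are neighbours on the X chromosome with 39051 bp between them. The nearest Spi1 peak to Tlr7 was 73777 bp away in KO-iMOS and 73684 bp in WT-iMOS, and the nearest Bcl11a peak 83573 bp.

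The first comparison asks whether Spi1 at these loci differs between KO-iMOS and WT-iMOS. Tlr4 and Tlr3 had a higher share of libraries in KO-iMOS, Tlr2 and Myd88 a lower share, and Tlr5, Tlr6 and Tlr9 the same share. The remaining 3 genes had no peak. By Fisher's exact test, adjusted over 21887 genes, 0 of 10 members (smallest adjusted p = 1) and 0 genes in all (0%) differed. Before adjustment, 1829 genes (8.36%) were higher and 194 (0.886%) lower in KO-iMOS with p under 0.05, and 0 members were among them. With the shortened lists these were 358 genes higher and 228 lower, again with 0 members. Without 1 library the higher count lay between 808 (without KO-iMOS T1 replicate 1) and 2654 (without WT-iMOS T2 replicate 1). An exact permutation of genotype within T gave 324 and 71 genes, and 0 after adjustment. Of all genes 46.4% had a higher and 9.55% a lower share of libraries in KO-iMOS. Tlr6 and Tlr9 stood at 6 of 6 in WT-iMOS, so their share could not be higher. The smallest unadjusted p this design allows is 0.00476, so a lack of calls does not show that binding was alike.

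Counted by library, the KO-iMOS Spi1 lists reached 5 ± 1.63 members (mean ± SD, n = 4) and the WT-iMOS Spi1 lists 5 ± 0.632 (n = 6). The same lists reached 42.8% ± 12.9 of all genes in KO-iMOS (n = 4) and 25.2% ± 7.62 in WT-iMOS (n = 6). The members' count was 3 to 7 in KO-iMOS and 4 to 6 in WT-iMOS, with the fewest in KO-iMOS T2 replicate 2, whose list of 6372 peaks is the shortest of that genotype. Within T2 the KO-iMOS libraries reached 5 and 3 members and the WT-iMOS libraries 6, 5 and 4; within T1 the KO-iMOS libraries reached 7 and 5 and the WT-iMOS libraries 5, 5 and 5. The part of list length in these counts was not tested beyond the shortened lists described in the closing section.

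**Figure D4:**
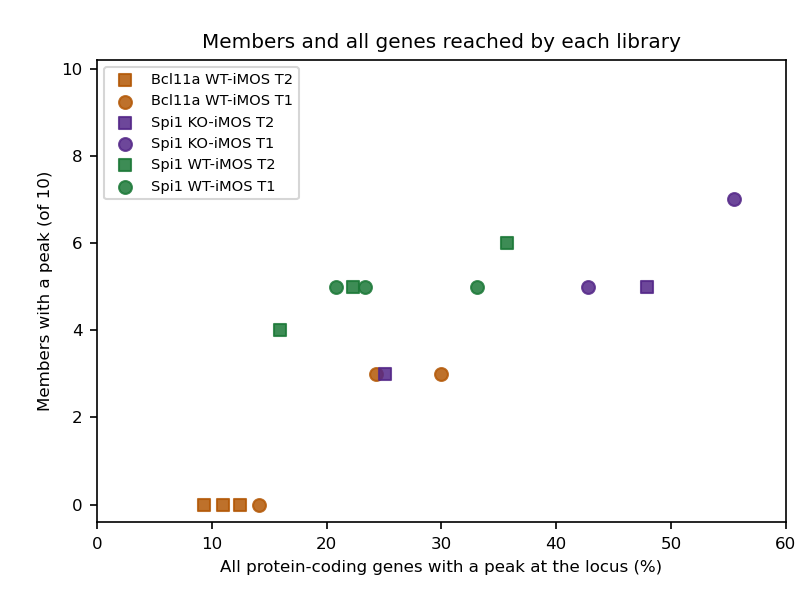
Each point is 1 library, with the percent of all protein-coding genes that have a peak at the locus on the x axis and the number of the 10 members with a peak on the y axis; colours mark target and genotype, squares T2 and circles T1. The 4 KO-iMOS Spi1 libraries lie at 25.1% to 55.5% of all genes and 3 to 7 members, the 6 WT-iMOS Spi1 libraries at 15.9% to 35.7% and 4 to 6, and 4 Bcl11a libraries at 0 members.

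The second comparison sets Bcl11a against Spi1 in WT-iMOS. Bcl11a had a lower share of libraries at 7 members (30.1% of all genes) and a higher one at 0 (14.5%), and the other 3 members had no peak of either factor. The share was lower by at least 0.5 at 6 members (Tlr2, Tlr4, Tlr5, Tlr6, Tlr9 and Myd88), against 12.3% of all genes, and higher by as much at 0 members, against 2.28%. These counts moved with list length. With the shortened lists Bcl11a was lower at 3 members (11.5% of all genes) and lower by at least 0.5 at 2 (6.25%), Tlr4 and Tlr9, while the difference was 0 at Tlr2, Tlr5 and Myd88. At Tlr9, 0 of 6 libraries then had Bcl11a and 6 of 6 had Spi1 (Fisher's exact test, p = 0.0021645, adjusted 0.119). At Tlr9 and at Tlr6, Bcl11a was in 2 of 6 libraries and Spi1 in 6 of 6 (Fisher's exact test, p = 0.0606, adjusted 0.831 for each). At Tlr2, Bcl11a was in 0 of 6 and Spi1 in 4 of 6 (exact p = 0.0606, adjusted 0.831). The test called 0 of 10 members and 0 genes in all (0%), with 59 genes (0.270%) higher and 798 (3.65%) lower for Bcl11a before adjustment, 0 members among them. Over 13640 merged regions it called 644 (4.72%), and 0 of the 8 member regions tested; before adjustment 0.601% of regions were higher and 10.1% lower for Bcl11a. The 8 Bcl11a peaks at the members all came from T1 replicates 2 and 3, which reached 24.3% and 30.0% of all genes. The 4 other Bcl11a libraries reached 0 members and between 9.30% and 14.1% of all genes. Without these T1 libraries, an alternative chosen after the values were seen, Bcl11a was at 0 of 10 members and the test called 0 regions. That test sets 4 libraries against 6, for which the smallest p it allows is larger. Before adjustment it had 128 regions higher and 2059 lower for Bcl11a, against 82 and 1379 with all libraries. The 0 calls thus do not show that the called regions rested on these T1 libraries. Without T1 replicate 2 alone, or T1 replicate 3 alone, 0 members had Bcl11a in at least 2 libraries.

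The third comparison sets T2 against T1 within each target and genotype. The share of libraries was lower in T2 at 7 members and higher at 0, against 44.4% and 11.1% of all genes. By exact permutation within target and genotype, 0 of 10 members and 0 genes in all (0%) differed after adjustment, and 9 genes (0.0411%) were higher and 194 (0.886%) lower in T2 before it, 0 members among them. A difference of at least 0.5 was reached by 0 members in either direction (0.0868% of all genes higher and 2.72% lower). In the full lists the widest step was at Tlr2, with a T2 minus T1 mean share of -0.333 (exact permutation p = 0.533, adjusted p = 1). It came from KO-iMOS, with Spi1 in 0 of 2 T2 and 2 of 2 T1 libraries, while WT-iMOS had 2 of 3 in each. At Tlr9 and Tlr6 the step in the full lists came from Bcl11a, since Spi1 was called at both in every T2 and T1 library. At Tlr4 it came from 1 Bcl11a library and 1 WT-iMOS Spi1 library. With the shortened lists T2 was lower at 2 members, Tlr4 and Tlr6 (15.8% of all genes), and the other 8 had a difference of 0. The widest step was then at Tlr6, with a T2 minus T1 mean share of -0.778 (exact permutation p = 0.0133, adjusted p = 1). Bcl11a was called there in 0 of 3 T2 and 2 of 3 T1 libraries, Spi1 in 0 of 2 T2 and 2 of 2 T1 libraries of KO-iMOS and in 1 of 3 T2 and 3 of 3 T1 libraries of WT-iMOS. At Tlr4 the step of -0.333 came from WT-iMOS, with Spi1 in 0 of 3 T2 and 3 of 3 T1 libraries. Within 1 target and genotype, T2 against T1 cannot go below an exact p of 0.1 with 3 libraries against 3, or 0.333 with 2 against 2.

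Other genes of Toll-like receptor signalling were read in the same way, at loci with a median length of 44.0 kb. Of 42 such genes, Bcl11a was called in at least 2 WT-iMOS libraries at 20 (25.3% of all genes), and Spi1 at 33 in KO-iMOS (49.8%) and at 27 in WT-iMOS (33.5%). By Fisher's exact test 0 of the 42 passed the adjustment. Before it, 3 were higher and 0 lower in KO-iMOS than in WT-iMOS (8.36% and 0.886% of all genes), and for Bcl11a against Spi1 0 were higher and 4 lower (0.270% and 3.65%). In KO-iMOS 8 genes stood higher by a share of at least 0.5 and 0 lower (22.5% and 2.12% of all genes). Among the genes called in most libraries were Pik3ap1 (15 of 16), an adaptor to phosphoinositide 3-kinase, Hsp90b1 (14), a chaperone that folds the receptors, Irf5 (13), a transcription factor downstream of Myd88, Ly86 (13) and Cd180 (12), which form a receptor complex that resembles that of Tlr4. Cd180 was 1 of 4 genes at 12 libraries, with Cnpy3, Tbk1 and Tnfaip3. Ripk1, a kinase of the Ticam1 branch, and Tirap, the adaptor that brings Myd88 to Tlr2 and Tlr4, had Spi1 in 4 of the 4 KO-iMOS libraries and 0 of the 6 from WT-iMOS (Fisher's exact test, p = 0.00476, adjusted 0.264 for each). Sarm1, an inhibitory adaptor, stood at 3 of 4 and 0 of 6. Lbp, the lipopolysaccharide binding protein, had Bcl11a in all 6 WT-iMOS libraries profiled for it and Spi1 in 2 of 6 (exact p = 0.0606, adjusted 0.831), and Ripk1 had Bcl11a in 3 and Spi1 in 0 of 6. Ly96, the partner of Tlr4 in lipopolysaccharide recognition, Nfkb1, a subunit of NF-kappaB, and Peli1, a ubiquitin ligase, showed the reverse, with Bcl11a in 0 of 6 and Spi1 in all 6 (Fisher's exact test, p = 0.00216, adjusted 0.162 for each).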

How the data were processed

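CUT&Tag libraries of sorted MPP3 cells were prepared, per the labels' protocols, with a Vazyme kit. The submitters' processing notes list Bowtie2, SAMtools, MACS2 and mm10, with no versions. Settings and any peak-calling control are not given in the sources used here. The authors deposited 1 narrowPeak list per library, with a score, the peak caller's fold enrichment, a ratio, and p- and q-values as -log10 for every peak. Score and fold enrichment were not used for any result.

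From the 131939 peaks, the 130097 on assembled chromosomes were used, with scipy 1.17.1 and pandas 2.3.3 under Python 3.11.15 (numpy 2.4.6; figures, matplotlib 3.10.9). Loci were gene bodies with 10 kb on either side, for 21887 protein-coding genes of a RefSeq table on GRCm38.p6. Presence of a peak per library was compared over all genes or all merged regions in at least 2 libraries, by Fisher's exact test or exact permutation, two-sided, adjusted by Benjamini-Hochberg, with 0.05 as threshold. The tests were checked on simulated data. Libraries were grouped by title. The members and lists were chosen with earlier results of these data known. All members are named; of the 42 signalling genes, those in most libraries and those with the widest differences are. Regions in at least 4 libraries, or in 2 of a group, have coordinates. Alternatives covered flanks, summits, stricter or shortened lists, merging and single libraries.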

Additional observations from a re-analysis of the deposited data

How the results depend on the processing

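The gene comparisons called 0 genes under every flank, summit, stricter-list, equal-length and single-library setting run. Lists shortened to at most 2719 peaks held that number in all but Bcl11a T2 replicate 2, where 2605 lay on assembled chromosomes. In them Spi1 was at Tlr9 in 4 of 4 and 6 of 6 libraries of KO-iMOS and WT-iMOS, at Tlr4 in 4 and 3, at Tlr6 in 2 and 4, at Myd88 in 2 and 0, and at Tlr2 and Tlr5 in 0. Merged regions numbered 6. Members with Spi1 in at least 2 libraries numbered 4 in KO-iMOS and 3 in WT-iMOS (12.7% and 13.4% of all genes). With gene bodies only, members with Spi1 numbered 4 and 4 (36.6% and 22.1%). With 50 kb flanks, where Tlr1 takes in the Tlr6 regions, they numbered 9 and 9 (69.4% and 57.2%). With a -log10 q above 5 they numbered 4 and 6 (42.7% and 27.8%). Those with Bcl11a numbered 1 with gene bodies only (16.4% of all genes), 4 with 50 kb flanks (46.6%), 1 with a -log10 q above 5 (18.2%), 1 with shortened lists (14.9%) and 0 without T1 replicates 2 and 3 together; leaving out 1 library gave 0 to 2, with 0 without T1 replicate 2 or without T1 replicate 3. Leaving out 1 library gave 4 to 6 members with Spi1 in KO-iMOS and 6 in WT-iMOS. Merged regions numbered 7 with gene bodies only and 40 with 50 kb flanks, both added after the data were seen. The 40 counts a region once for each member it reaches, so the Tlr6 regions are in it for Tlr1 as well. The 644 regions called between Bcl11a and Spi1 were 652 to 887 without 1 library, 0 with no minimum number of libraries and 0 without both T1 libraries; the last compares 4 libraries with 6.

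Differences at single members that did not pass a test changed sign in places. For Myd88 the KO-iMOS minus WT-iMOS share was -0.0833, and became 0.25 with a -log10 q above 5, 0.5 with shortened lists and 0.167 without KO-iMOS T2 replicate 2 (range without 1 library -0.25 to 0.167). For Tlr3 it became -0.167 without KO-iMOS T1 replicate 1 (range -0.167 to 0.25). The T2 minus T1 share became 0.167 with gene bodies only at Tlr5 and 0.0556 there without KO-iMOS T2 replicate 2 or T1 replicate 1 (range -0.278 to 0.0556), and at Tlr3 0.0556 with 50 kb flanks and 0.111 without KO-iMOS T1 replicate 1 (range -0.222 to 0.111). The cause was not tested.

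The replicate block called 0 genes in each comparison. For KO-iMOS against WT-iMOS it holds too few libraries for any gene to reach an unadjusted p under 0.05. The 0 genes at that threshold there were thus fixed in advance and carry no information. For Bcl11a against Spi1 each block sets single libraries against each other. A call after adjustment would there need most of all genes at the smallest p the blocks allow, so those 0 calls carry little information. At the unadjusted threshold there were 8 genes higher and 285 lower for Bcl11a against Spi1, and for T2 against T1 0 higher and 46 lower. Deviations of same-numbered libraries correlated at -0.00736 to 0.175 between KO-iMOS and WT-iMOS (2 of 4 best with their own number). Between Bcl11a and Spi1 they correlated at -0.11 to 0.00156 (0 of 6), and between T2 and T1 at 0.00111 to 0.258 (6 of 8). For T2 against T1 the mean correlation was 0.111 with the same number and -0.0633 with another number. These values do not settle whether the numbers mark pairs. The main tests did not use them as pairs, and only the replicate block did. Depth is unknown, and a peak not called limits what can be said of the short Bcl11a lists.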
